A study of Mus musculus with 2 samples.

Results

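The 10 genes described here encode transcription factors and chromatin-bound regulators that set photoreceptor identity in the mouse retina, and they were found by their symbols among the 32227 genes of the deposited gene table. Of these, 6 act in rods, namely Nrl, Nr2e3, Esrrb, Mef2c, Samd7 and Samd11. The other 4, Crx, Otx2, Neurod1 and Prdm1, act in photoreceptor precursors or in rods and cones alike. All 10 were matched and had UMIs (unique molecular identifiers, each standing for 1 captured transcript) in both libraries. The rule uses no expression value.

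Nuclei of whole retinas from C57 BL/6J mice aged 21 postnatal days were sequenced singly for their RNA. The Cre- library came from animals without Cre, whose genotype the labels give as WT, and the Tet tcKO library from animals with a conditional deletion of Tet1, Tet2 and Tet3. By the study's methods, a Cre-GFP transgene active in retinal progenitor cells drove the deletion of loxP-flanked alleles, Cre+ animals were in-crossed against mosaic activity, controls came from breeders without Cre, and each library pooled nuclei of several animals. The animal of a nucleus is not given in the deposited tables, so each genotype counted as 1 sample, no test between genotypes was possible, and every interval below is a 95% interval that covers counting error only. UMIs without replicates of the library say nothing of the spread between animals.

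A photoreceptor begins as a postmitotic precursor that expresses Otx2 and then Crx, homeodomain factors that switch on genes shared by rods and cones. NRL, a leucine zipper protein, directs the precursor to the rod fate and activates Nr2e3, whose nuclear receptor product represses cone genes and works with NRL and CRX on rod genes. ESRRB and MEF2C are further factors of the rod network, and SAMD7 and SAMD11 are subunits of Polycomb complexes that silence genes of other cell types in rods. NEUROD1 is a basic helix-loop-helix factor of photoreceptors and other retinal neurons, and PRDM1 (BLIMP1) is a zinc finger repressor that holds photoreceptor precursors back from the bipolar fate and is normally low in the mature retina. TET enzymes oxidise 5-methylcytosine at CpG dinucleotides, the first step of active DNA demethylation.

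The Cre- library held 7357 nuclei and 11510585 UMIs, and the Tet tcKO library 6766 nuclei and 16590747 UMIs. The median depth of a nucleus was 1107 UMIs (Cre-) against 1836.5 (Tet tcKO), and its mitochondrial share was 9.52% and 5.38% by the authors' values. Only 1 cell barcode occurred in both libraries. Levels are given as counts per 1000000 UMIs (CPM) of a population within a library. The targeted genes stood at 50.2 and 61.2 CPM (Tet1), 105 and 139 CPM (Tet2) and 180.4 and 174 CPM (Tet3) in Cre- and Tet tcKO. The counts are not divided by exon, so they check neither the deletion nor the labels.

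Cell types and clusters are the authors' annotation. Their rod and cone names divided the genotypes almost completely, with 5214 rods and 265 cones in Cre- and 6 rods and 3225 cones in Tet tcKO. Of the Cre- cones, 264 came from cluster 11, and the markers went against that cluster's name. The 10 rod markers summed to 14409 CPM in Cre- cones against 11514 CPM in Cre- rods and 6380 CPM in Tet tcKO cones, and the 10 cone markers to 1900.4, 1733 and 6881 CPM. Photoreceptors were therefore compared as rods and cones pooled (5479 and 3231 nuclei), and values by annotated name are given beside the cluster number. With leading genes ranked by summed UMIs, 4 of the 9 bipolar clusters, all of Tet tcKO, failed a marker check. They had a marker of some other class and none of bipolar cells among their 10 leading genes. Ranked by nuclei with a UMI, only 1 of the 9 failed, cluster 35. On the first ranking the bipolar class was not compared between genotypes, and Tet tcKO bipolar levels are given by cluster.

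The genes lie on 9 chromosomes of GRCm39. Nrl is at chr14:55756435-55762438, Nr2e3 at chr9:59850054-59867942, Esrrb at chr12:86407887-86568409, Mef2c at chr13:83652064-83815555, Samd7 at chr3:30800442-30821323 and Samd11 at chr4:156331423-156341182. Crx is at chr7:15599872-15613893, Otx2 at chr14:48894099-48911276, Neurod1 at chr2:79282865-79287294 and Prdm1 at chr10:44313171-44404497. In the GENCODE annotation no other gene overlaps Nrl, Crx or Prdm1. Neurod1 shares 4265 bases with Cerkl on the same strand, Nr2e3 shares 3149 bases with the long non-coding RNA Gm15507, and Otx2 shares 5112 bases with Otx2os1 on the opposite strand. How reads in shared bases were assigned is not stated in the sources used here, so counts of these 3 genes are uncertain to that extent. Esrrb, Mef2c, Samd7 and Samd11 share bases with genes on the opposite strand only, and whether reads were counted by strand is not stated either. Of these neighbours Noc2l, next to Samd11, had a log2 ratio of 0.06 in pooled photoreceptors.

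The promoters of the 10 genes were read for the letters that retinal factors are known to prefer, since several members are both products and targets of this network. RefSeq windows from 250 bases before to 50 bases after a transcript start were used, 16 windows in all, taken from a table of assembly GRCm38.p6 and placed in GRCm39 by exact match. The core TAATCC, read by CRX and OTX2 on either strand, was found in the windows of Samd7 (1 match), Samd11 (2), Crx (2) and in 1 of 4 windows of Otx2 (1). It occurs in 7.06% of the 32851 windows of all genes. The bases upstream of the RefSeq starts of Samd7, Crx and Nr2e3 are shown here because Samd7 and Crx hold the core and were not 2-fold lower in Tet tcKO photoreceptors, while Nr2e3 holds none and was 2-fold lower. Capitals mark the core, and each run is written from 5′ to 3′ along the gene, ending before the first base of the window that GENCODE places in an exon of the gene. The Nr2e3 run lies inside the GENCODE span given above, which reaches further upstream than the RefSeq start.
Samd7 (chr3:30800192-30800441, + strand): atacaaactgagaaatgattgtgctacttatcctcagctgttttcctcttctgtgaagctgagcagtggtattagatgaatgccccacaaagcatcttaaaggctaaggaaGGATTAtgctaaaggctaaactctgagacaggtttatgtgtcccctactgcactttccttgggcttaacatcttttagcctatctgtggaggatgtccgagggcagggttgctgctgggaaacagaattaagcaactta
Crx (chr7:15613894-15614130, - strand): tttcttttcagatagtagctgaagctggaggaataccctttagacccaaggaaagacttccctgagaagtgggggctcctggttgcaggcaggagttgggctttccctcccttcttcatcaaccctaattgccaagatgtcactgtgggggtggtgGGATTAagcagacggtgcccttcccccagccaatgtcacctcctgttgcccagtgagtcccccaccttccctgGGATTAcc
Nr2e3 (chr9:59857430-59857612, - strand): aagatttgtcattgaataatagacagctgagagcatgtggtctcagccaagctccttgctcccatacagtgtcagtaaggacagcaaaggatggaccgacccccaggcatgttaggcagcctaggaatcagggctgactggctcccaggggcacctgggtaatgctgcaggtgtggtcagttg
Samd11, whose level was lower, also holds the core, so the letters did not divide the genes by direction. Its 2 cores are shown with 10 bases on each side, since an exon of another Samd11 transcript reaches into the window.
Samd11, 193 bases before the start (chr4:156340580-156340605, - strand): tcacgccgatTAATCCtataaagtac
Samd11, 67 bases before the start (chr4:156340454-156340479, - strand): tgccagccctGGATTAgcccggctcc
The windows of Nrl, Nr2e3 and Prdm1 held none of the 5 motifs searched on both strands. The NRL site TGCTGA, present in 19.5% of all windows, was found in Samd11 (1), Neurod1 (2), 1 of 3 Mef2c windows and 2 of 4 Otx2 windows. The NR2E3 site AAGTCA (15.1% of windows) was found in 1 of 2 Esrrb and 1 of 3 Mef2c windows, and the ESRRB site TCAAGGTCA (0.423%) and the MEF2 site CTANNNNTAG (3.69%) in none. CpG dinucleotides numbered 2 in the Nrl window, 5 in Nr2e3, 3 in Samd7, 10 in Samd11, 3 in Crx, 26 in Neurod1 and 20 in Prdm1, against a median of 7 (quartiles 3 and 20) over all windows. A match is a match of letters and not a bound site, and methylation was not measured in these libraries.

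The rod factors were lower in the Tet tcKO library in all but 1 case, while the pan-photoreceptor factors were not lower and Prdm1 was higher. Over all nuclei, 5 of the 6 rod factors were at least 2-fold lower and Prdm1 alone was at least 2-fold higher. Of the 11158 genes that reached 10 CPM in 1 library or both, 2.48% were at least 2-fold lower and 3.18% at least 2-fold higher, 5.66% in all. The same 5 and 1 genes passed 2-fold in rods and cones pooled, where the background was 2.58% lower and 6.67% higher, 9.25% in all, of 11377 genes. The median gene had a log2 ratio (Tet tcKO over Cre-) of 0.15 over all nuclei and 0.23 in rods and cones pooled, so ratios near these values are no difference relative to other genes. In sums over all nuclei, fewer nuclei of a type and less RNA per nucleus cannot be told apart, which is why the pooled photoreceptor values follow each. By name the pooled class is mostly rods in Cre- (5214, with 265 cones) and mostly cones in Tet tcKO (3225, with 6 rods). The pooled values therefore do not separate photoreceptor type from level per nucleus either.

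**Figure D1:**
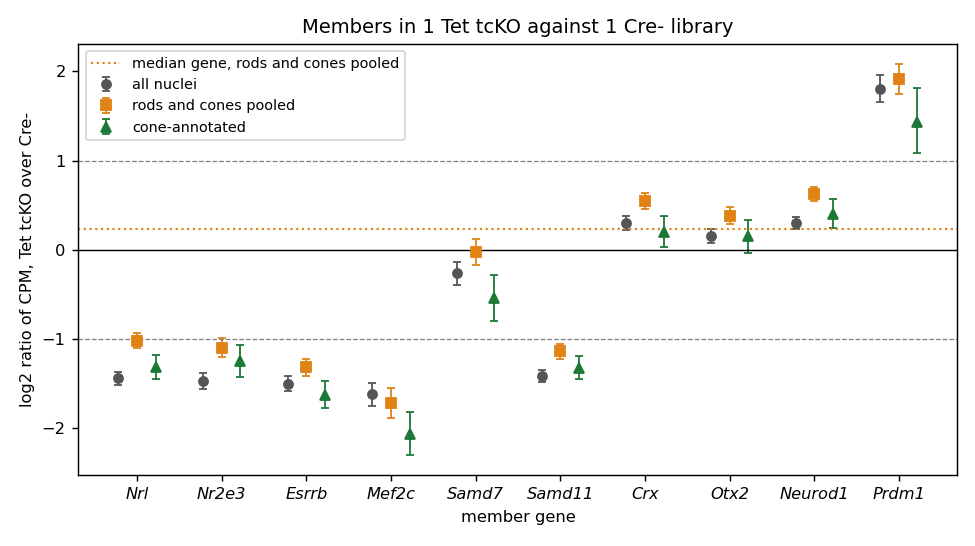
Log2 ratio of CPM (y axis, Tet tcKO over Cre-) of each member (x axis) over all nuclei, in rods and cones pooled and in cone-annotated nuclei, with 95% counting intervals; dashed lines mark 2-fold and the dotted line the median gene in pooled photoreceptors (0.23). Nrl, Nr2e3, Esrrb, Mef2c and Samd11 lie below -1 in each population, Samd7 near 0 in pooled photoreceptors (-0.03), and Prdm1 above 1.

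Nrl and Nr2e3 head the rod network. In rods and cones pooled, Nrl stood at 451 CPM (436 to 466; 3416 UMIs) in Cre- against 223 CPM (212 to 234; 1649 UMIs) in Tet tcKO (log2 ratio -1.02, -1.10 to -0.93). Nr2e3 stood at 305 CPM (293 to 318) and 143 CPM (134 to 152) (log2 ratio -1.10, -1.20 to -0.99). Both remained detected in Tet tcKO photoreceptors, at about 2-fold lower levels. Without cluster 11 the Nrl log2 ratio was -0.97, and with each gene counted once per nucleus it was -0.88.

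Esrrb and Mef2c, the other DNA-binding rod factors, were lower by more. Esrrb stood at 394 CPM (380.0 to 408; 2985 UMIs) in Cre- photoreceptors and 158 CPM (149 to 167; 1172 UMIs) in Tet tcKO photoreceptors (log2 ratio -1.32, -1.42 to -1.22). Mef2c, a MADS-box factor, stood at 170.4 CPM (161 to 179.97; 1291 UMIs) and 51.8 CPM (46.8 to 57.3; 384 UMIs) (log2 ratio -1.72, -1.89 to -1.55). The interval of Mef2c lies below those of the other 9 members. After subtraction of the level in retinal ganglion cells (RGCs) of the same library its log2 ratio was -2.17. The RGC level of Mef2c was 39.8% of the photoreceptor level in Tet tcKO and 17.6% in Cre-, so the subtraction itself lowers the ratio. Whether RGCs express Mef2c themselves was not tested. The related factors Mef2a and Mef2d were not 2-fold lower, with log2 ratios of 0.25 (0.12 to 0.38) and 0.18 (0.08 to 0.28). Nor was Esrrg, a relative of Esrrb, at -0.26 (-0.37 to -0.14).

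The Polycomb-associated pair divided. Samd11 stood at 543 CPM (526 to 559.6; 4112 UMIs) in Cre- photoreceptors and 247 CPM (236 to 258; 1828 UMIs) in Tet tcKO photoreceptors (log2 ratio -1.14, -1.22 to -1.06). When a nucleus counted once for a gene, Samd11 was at -0.96, short of 2-fold. Samd7 stood at 100.8 CPM (93.8 to 108; 764 UMIs) and 99.1 CPM (92.02 to 106; 734 UMIs) (log2 ratio -0.03, -0.17 to 0.12). The counting interval of Samd7 includes 0 and lies below the median gene. Its sign depended on the processing, at 0.08 without cluster 11, 0.04 without the 10% of nuclei with the most UMIs and 0.02 with the RGC level subtracted, and at -0.22 under TMM factors. Over all nuclei Samd7 was 76.5 CPM in Cre- against 63.7 CPM in Tet tcKO (log2 ratio -0.26, -0.40 to -0.13).

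Crx and Otx2, the homeodomain pair at the top of the photoreceptor programme, were modestly higher. In rods and cones pooled Crx stood at 234 CPM (223 to 245) in Cre- against 342 CPM (329 to 356) in Tet tcKO (log2 ratio 0.55, 0.46 to 0.63). Otx2 stood at 226 CPM (216 to 237; 1713 UMIs) and 295 CPM (283 to 308; 2187 UMIs) (log2 ratio 0.38, 0.29 to 0.48). Both lie above the median gene of 0.23 in pooled photoreceptors. Over all nuclei the Otx2 log2 ratio was 0.15 (0.08 to 0.23), the same to 2 decimals as that of the median gene. When a nucleus counted once for a gene, the pooled values were 0.27 for Crx and 0.14 for Otx2. The antisense gene Otx2os1, which shares bases with Otx2, did not move with it and stood at 1152 and 1080.2 CPM (log2 ratio -0.09, -0.14 to -0.05).

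Neurod1 stood at 293 CPM (281 to 305; 2220 UMIs) in Cre- photoreceptors and 451 CPM (436 to 467; 3342 UMIs) in Tet tcKO photoreceptors (log2 ratio 0.62, 0.54 to 0.70). Cerkl, which contains most of Neurod1 on the same strand, stood at 53.5 and 128 CPM there (log2 ratio 1.26, 1.09 to 1.43). Cerkl thus moved with Neurod1, and its part in the Neurod1 value was not tested. When a nucleus counted once for a gene, the Neurod1 log2 ratio was 0.15, and in nuclei with 1000 to 2000 UMIs it was 0.47.

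Prdm1 was the member with the opposite pattern to the rod factors. It stood at 46.7 CPM (42.0 to 51.9; 354 UMIs) in Cre- photoreceptors and 176 CPM (167 to 186; 1305 UMIs) in Tet tcKO photoreceptors (log2 ratio 1.91, 1.74 to 2.09), or 3.77-fold. Over all nuclei it stood at 38.5 and 135 CPM, from 443 and 2232 UMIs (log2 ratio 1.81, 1.658 to 1.956). Its pooled log2 ratio stayed between 1.70 and 2.01 under every alternative run. In the mature retina Prdm1 is described as a factor of the precursor stage, and no other time point was measured here.

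Cone-annotated nuclei set cluster 11 of Cre- against clusters 46, 48 and 50 to 55 of Tet tcKO. There, 3.48% of 11445 genes were at least 2-fold lower and 8.48% at least 2-fold higher, and 5 members were lower and 1 higher. Esrrb stood at 486 and 158 CPM (log2 ratio -1.62, -1.77 to -1.47), and Mef2c at 216 and 51.9 CPM (log2 ratio -2.06, -2.30 to -1.81). Samd7, near 0 in pooled photoreceptors, stood at 144 and 99.2 CPM (log2 ratio -0.54, -0.80 to -0.28). This difference from the pooled value goes with the level of Samd7 in cluster 11, 145 CPM, the highest of the 15 Cre- photoreceptor clusters. Prdm1 stood at 65.0 and 176 CPM (log2 ratio 1.44, 1.08 to 1.81), and Crx, Otx2 and Neurod1 at 0.20, 0.15 and 0.41.

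The authors' clusters give the spread of each gene within a library. They were computed on all genes, the members included, so cluster values are a description. The Cre- library had 15 photoreceptor clusters of 50 nuclei or more (14 of rods and cluster 11) and the Tet tcKO library 8, all of cones. Nrl ranged from 257 to 573 CPM over the Cre- clusters and from 134 to 250.98 CPM over the Tet tcKO clusters. Esrrb ranged from 186 to 495 CPM and from 122 to 171 CPM. Mef2c ranged from 125 to 216 CPM and from 41.7 to 68.2 CPM. For these genes, and for Nr2e3 and Samd11, every Cre- cluster was above every Tet tcKO cluster. The share of all genes with cluster ranges apart was not computed, so it is not known how unusual this is. The gap was narrow for Nrl, where Cre- cluster 25 (257 CPM) and Tet tcKO cluster 48 (250.98 CPM) nearly met, and for Samd11, where the nearest clusters had 300.5 and 286 CPM. Cluster 25 was led by the haemoglobin genes Hbb-bt, Hbb-bs, Hba-a2 and Hba-a1 in summed UMIs. Whether RNA of other cells lowered its Nrl was not tested.

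Prdm1 and Neurod1 were apart in the other direction, again without a share over all genes to set beside them. Prdm1 ranged from 14.8 to 65.0 CPM over the Cre- clusters and from 155 to 243 CPM over the Tet tcKO clusters. Neurod1 ranged from 240.3 to 341 CPM and from 378 to 523 CPM. The ranges overlapped for Samd7 (44.3 to 145 and 60.9 to 121 CPM), Crx (132 to 298 and 239.7 to 414 CPM) and Otx2 (118 to 291 and 207 to 357 CPM). Within Tet tcKO, cluster 52 had both the lowest Nrl (134 CPM) and Samd11 (86.3 CPM) and the highest Prdm1 (243 CPM) and Mef2c (68.2 CPM). Within Cre-, cluster 16 was highest for Nrl, Nr2e3 and Samd11 (573, 405 and 813 CPM).

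**Figure D2:**
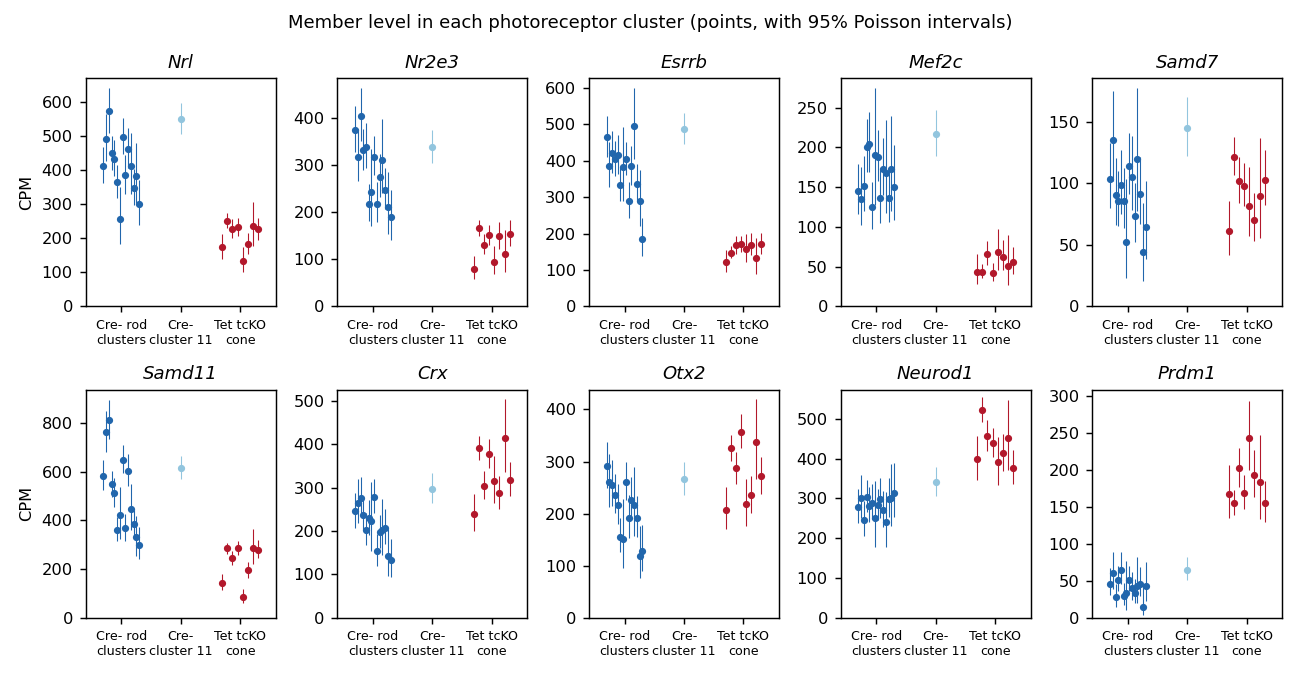
CPM (y axis, from 0) of each member in every photoreceptor cluster of 50 nuclei or more, as points with 95% Poisson intervals; dark blue, 14 Cre- rod clusters; light blue, Cre- cluster 11; red, 8 Tet tcKO cone clusters. Every Cre- point lies above every Tet tcKO point for Nrl, Nr2e3, Esrrb, Mef2c and Samd11 and below for Neurod1 and Prdm1, and the points overlap for Samd7, Crx and Otx2. The share of all genes apart in this way was not computed.

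In the pooled class, cluster 32 (568 nuclei) failed the marker check as photoreceptors whether leading genes were ranked by summed UMIs or by nuclei with a UMI, and cluster 40 (290 nuclei) failed by the second ranking. Without them the log2 ratios were -1.04 for Nrl, -1.35 for Esrrb, -1.74 for Mef2c, -1.19 for Samd11, -0.05 for Samd7 and 1.87 for Prdm1. None of the 10 genes crossed 2-fold by this step.

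Levels by annotated cell type show where each gene was highest within a library. In Cre-, 9 of the 10 members stood higher in cones (cluster 11) than in rods with intervals apart, and for Nr2e3 (338 and 299.6 CPM) the intervals overlapped. The share of all genes higher in these cones was not computed, so this count is no result about the members. The 10 rod markers were also higher there (14409 against 11514 CPM), and the median depth was 3736 against 1025.5 UMIs. Esrrb stood at 486 CPM (444 to 530) in Cre- cones, 379.6 CPM (365 to 395) in rods, 276 CPM (252 to 302) in bipolar nuclei, 106 CPM (80.4 to 136) in amacrine nuclei and 58.5 CPM (45.8 to 73.7) in RGCs. In Tet tcKO it stood at 158 CPM in cones, 30.3 CPM in amacrine nuclei and 16.9 CPM in RGCs, and at 48.4 to 195.1 CPM over the 6 bipolar clusters. Within each library the Esrrb intervals of these classes, the Tet tcKO bipolar clusters aside, were apart. Other classes did not keep apart in this way. In Cre-, horizontal cells (215 CPM, 149 to 300) and Müller glia (198 CPM, 144 to 266) overlapped bipolar nuclei. In Tet tcKO, Müller glia (60.3 CPM, 27.6 to 114) overlapped amacrine nuclei. The 37 Tet tcKO horizontal nuclei, under the minimum of 50, stood at 207 CPM (131 to 311; 23 UMIs), an interval that holds the cone level. Otx2, which bipolar cells also express, stood at 219.9 CPM in Cre- rods and 219 CPM in Cre- bipolar nuclei with overlapping intervals.

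Mef2c was closer between classes in Tet tcKO than Nrl was. In Cre- it stood at 216 CPM in cones, 163 CPM in rods, 106 CPM in bipolar nuclei and 37.6 CPM in amacrine nuclei. In Tet tcKO it stood at 51.9 CPM (46.8 to 57.3) in cones and 35.4 CPM (28.2 to 43.9) in amacrine nuclei, with intervals apart, and at 30.8 to 76.8 CPM over the bipolar clusters, a range that holds the cone level. Nrl stood at 221 CPM in Tet tcKO cones and 38.8 CPM in amacrine nuclei, and at 39.6 to 77.7 CPM over the bipolar clusters, all below the cone level.

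**Figure D3:**
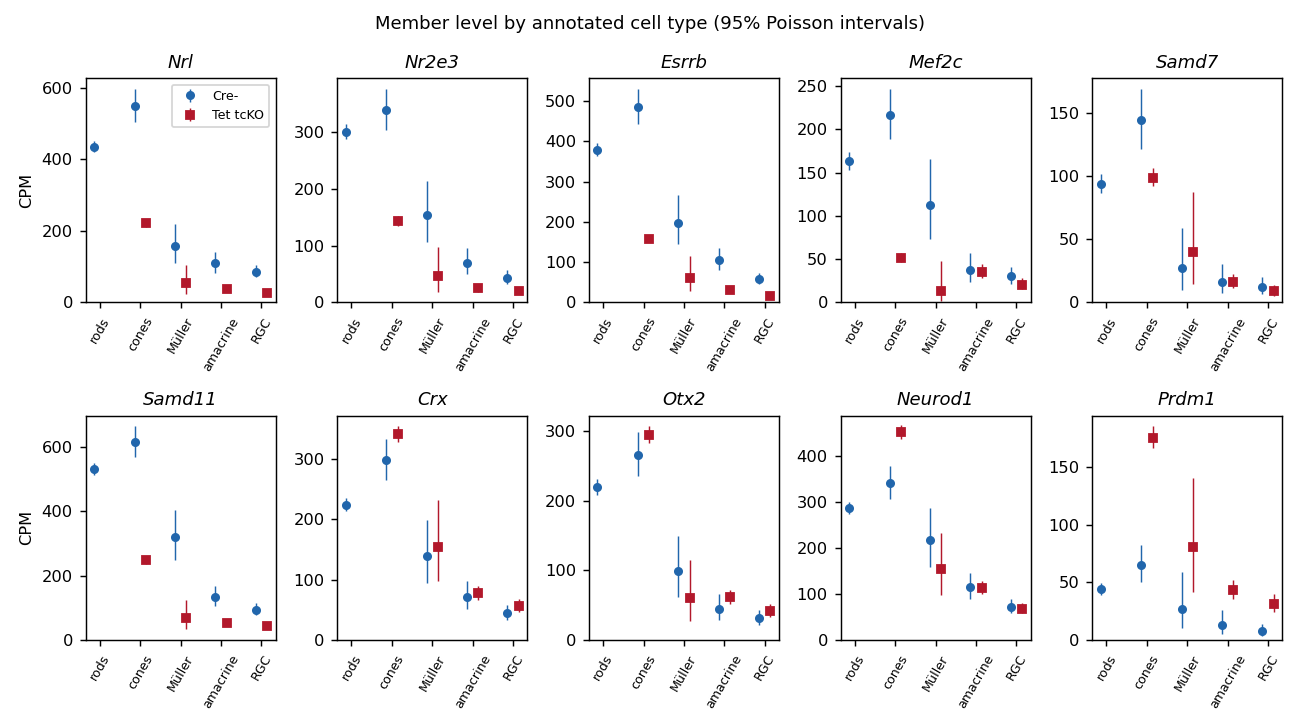
CPM (y axis, from 0) of each member by annotated cell type (x axis) in the Cre- library (blue circles) and the Tet tcKO library (red squares), with 95% Poisson intervals; classes under 50 nuclei, bipolar nuclei and horizontal cells are not drawn. In Tet tcKO, Mef2c stands at 51.9 in cones and 35.4 in amacrine nuclei, while Nrl stands at 221 and 38.8.

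Amacrine cells and RGCs were taken as classes without rod factors of their own, which was not tested, and were set beside the photoreceptors of each library. Most amacrine nuclei came from cluster 27 in Cre- and the most from cluster 12 in Tet tcKO, and most or the most RGCs from clusters 8 and 31, so different clusters make up these classes. In Cre- RGCs the members other than Neurod1 stood at 12.1% (Samd7) to 19.1% (Nrl) of their level in pooled photoreceptors. In Tet tcKO RGCs they stood at 8.99% (Samd7) to 17.9% (Samd11), but for Mef2c at 39.8%. Neurod1, which other retinal neurons also use, stood at 24.7% and 15.1%, and at 189 and 189.9 CPM in amacrine cluster 13.

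RGC levels differed between the libraries, with Esrrb at 58.5 and 16.9 CPM (log2 ratio -1.79, -2.41 to -1.20), Samd11 at 94.3 and 44.1 CPM (log2 ratio -1.10, -1.51 to -0.69), and Prdm1 at 7.32 and 31.4 CPM (log2 ratio 2.10, 1.09 to 3.29). The Prdm1 value in Cre- RGCs rests on 9 UMIs. Within cluster 2, the RGC cluster compared in both libraries, Samd11 stood at 45.3 and 43.5 CPM (log2 ratio -0.06, -0.87 to 0.78). Esrrb there had a log2 ratio of -1.03 (-2.20 to 0.12) and Nrl one of -0.79 (-1.70 to 0.12). The cluster 2 intervals of these 3 genes include 0, and that of Prdm1 does not (2.15, 0.41 to 4.53; 3 and 22 UMIs).

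The proportion to Crx in RGCs was compared with that in the photoreceptors of both libraries. For 5 of the 9 other members, Nrl, Nr2e3, Esrrb, Samd11 and Prdm1, it lay nearer on the log scale to the photoreceptors of the same library, in both libraries. The same 5 did so in amacrine nuclei. Nrl UMIs per Crx UMI were 1.93 in Cre- photoreceptors and 1.963 in Cre- RGCs, and 0.651 and 0.467 in Tet tcKO. Nr2e3 UMIs per Crx UMI were 1.30 and 0.981 in Cre-, and 0.417 and 0.367 in Tet tcKO. Prdm1 UMIs per Crx UMI were 0.200 and 0.167 in Cre-, and 0.515 and 0.558 in Tet tcKO. Mef2c, Samd7, Otx2 and Neurod1 did not do so in both libraries, and Mef2c per Crx was 0.152 in Tet tcKO photoreceptors and 0.367 in RGCs. For Otx2 (0.966 and 0.863) and Neurod1 (1.25 and 1.32) the photoreceptors of both libraries were close, so nearness says little. The share of all genes that lay nearer in this way was not computed. The source of member UMIs in RGCs and amacrine nuclei was not tested.

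The ratio to Crx within a library does not depend on how libraries are scaled to each other. Crx itself was higher in Tet tcKO photoreceptors (log2 ratio 0.55), so division by it lowers the ratio of every gene. The share of all genes past 2-fold on this scale was not computed, and the shares given for CPM do not apply to it. Per Crx UMI in pooled photoreceptors, Esrrb stood at 1.68 in Cre- and 0.463 in Tet tcKO, a 3.64-fold lower ratio. Mef2c stood at 0.728 and 0.152, 4.802-fold lower, and Nr2e3 at 1.30 and 0.417, 3.12-fold lower. Samd7, level in CPM, stood at 0.431 and 0.290, 1.49-fold lower relative to Crx. Otx2 (0.966 and 0.863) and Neurod1 (1.25 and 1.32) kept within 1.12-fold of their proportion to Crx, and Prdm1 (0.200 and 0.515) was 2.58-fold higher. In nuclei with 1000 to 2000 UMIs the same 5 rod factors were at least 2-fold lower per Crx UMI, while the log2 ratio of Neurod1 per Crx went from 0.08 to -0.07.

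The difference over all nuclei was split into what the class shares and what the levels inside classes contributed, with rods and cones merged and the other classes as annotated. The bipolar class is among these, although 4 of its 9 clusters, all of Tet tcKO, failed the marker check on the first ranking. All parts below therefore depend on that annotation. Merging counts an exchange of rods for cones as a difference in level, so the class share parts below do not include it. For Esrrb, of a difference of -207 CPM, class shares held 15.0%, and for Mef2c, of -92.03 CPM, 12.7%. Samd11 followed with 18.3% of -269.8 CPM. Samd7 was the exception, since class shares held 107% of its -12.8 CPM and the part from levels was 0.953 CPM. Crx, Otx2 and Neurod1 were lower by class shares (-33.5, -24.5 and -35.1 CPM) and higher by level (77.3, 46.0 and 94.5 CPM). For Prdm1 the part from levels was 106 CPM, of which photoreceptors held 71.5 CPM and bipolar-annotated nuclei 27.3 CPM.

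Shares of nuclei with a UMI were compared after thinning each nucleus to 500 UMIs, since the libraries differ in depth. At this depth a UMI of Esrrb was found in 17.2% (16.2 to 18.3) of Cre- rods and 7.75% (6.85 to 8.73) of Tet tcKO cones, and in 3.704% and 0.284% of RGCs. Mef2c was found in 7.86% (7.15 to 8.63) and 2.36% (1.86 to 2.94), and in 1.59% and 0.284% of RGCs. Samd11 was found in 23.2% (22.1 to 24.4) and 11.6% (10.5 to 12.8). All of these lie above the RGC share of their own library. Samd7 was found in 4.78% (4.21 to 5.39) and 5.02% (4.29 to 5.83), shares with overlapping intervals.

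The pan-photoreceptor factors were found in a larger share of Tet tcKO cones than of Cre- rods. This did not hold in every class, since Neurod1 was found in 4.23% of Cre- RGCs and 3.84% of Tet tcKO RGCs. The share of all genes found in more Tet tcKO cones than Cre- rods was not computed. Crx was found in 10.6% (9.78 to 11.5) of Cre- rods and 14.8% (13.6 to 16.1) of Tet tcKO cones, Otx2 in 10.1% (9.27 to 10.9) and 13.1% (11.999 to 14.4), and Neurod1 in 13.8% (12.9 to 14.8) and 19.7% (18.3 to 21.1). Prdm1 was found in 2.13% (1.75 to 2.56) of Cre- rods and 8.90% (7.94 to 9.94) of Tet tcKO cones, with 0.529% and 2.70% in RGCs. Without thinning the shares in Cre- rods and Tet tcKO cones were 37.5% and 29.98% for Esrrb, 18.6% and 11.3% for Mef2c, 45.99% and 40.2% for Samd11, 24.5% and 52.1% for Crx, 23.7% and 45.9% for Otx2 and 30.7% and 58.9% for Neurod1. For Prdm1 they were 5.31% and 32.3%, at median depths of 1025.5 and 1715 UMIs. For Samd7 they were 11.03% and 19.5%, and their intervals overlapped only after thinning.

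**Figure D4:**
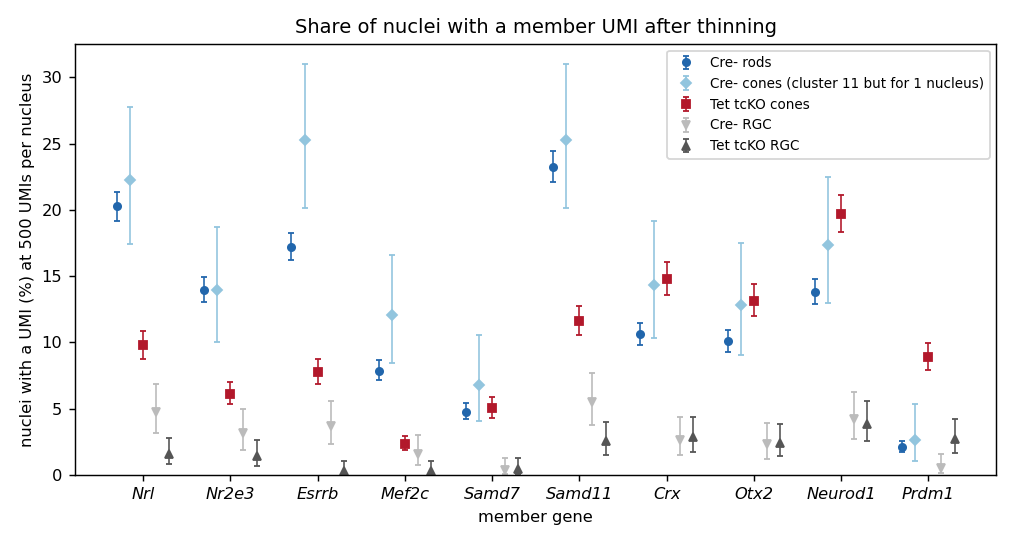
Share of nuclei (y axis, %) with at least 1 UMI of each member (x axis) after thinning to 500 UMIs per nucleus, with 95% Clopper-Pearson intervals, in Cre- rods, Cre- cones, Tet tcKO cones and RGCs of both libraries. Rod factors other than Samd7 lie lower in Tet tcKO cones than in Cre- rods, and Prdm1 lies at 8.90% against 2.13%.

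Several members were also counted in the same nucleus. Joint shares rise and fall with the shares of the single genes. What independent detection would give was not computed, so the joint shares do not show that members go together or apart. After thinning, at least 1 of the 6 rod factors was found in 60.8% (59.5 to 62.2) of Cre- rods and 36.5% (34.8 to 38.2) of Tet tcKO cones. At least 2 were found in 21.96% (20.8 to 23.1) and 5.30% (4.55 to 6.13), and Nrl with Nr2e3 in 2.59% (2.18 to 3.06) and 0.589% (0.355 to 0.919). At least 1 pan-photoreceptor factor was found in 32.4% and 45.5%. Prdm1 together with a rod factor was found in 1.23% (0.947 to 1.56) of Cre- rods and 3.22% (2.64 to 3.89) of Tet tcKO cones, and in 2.37% (1.69 to 3.22) of Tet tcKO nuclei annotated as bipolar, an interval that overlaps that of the cones. It was found in 0 of 403 (Cre-) and 0 of 1043 (Tet tcKO) thinned amacrine nuclei, for which the upper Clopper-Pearson bounds are 0.911% and 0.353%, and in 2 of 567 and 0 of 704 RGCs, with upper bounds of 1.27% and 0.523%. Without thinning these nuclei were 4.78% of Cre- rods and 28.1% of Tet tcKO cones, against 22.7% of the Tet tcKO bipolar nuclei, 0.993% and 3.26% of the amacrine nuclei and 1.41% and 4.40% of the RGCs. Whether nuclei with both carried RNA of more than 1 cell was not tested.

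Bipolar-annotated clusters are given by number. The 3 Cre- clusters (3, 4 and 7) had 12.3 to 44.5 CPM of Prdm1, and the 6 Tet tcKO clusters 39.6 to 404 CPM. The highest was cluster 22, with 214 Tet tcKO nuclei, where Prdm1 (404 CPM) and Neurod1 (548 CPM) exceeded their level in each Tet tcKO cone cluster. For Neurod1 cone cluster 48 was close, at 523 CPM, so that order is uncertain. Cluster 22 was also highest of the 6 for Crx (399 CPM), Samd7 (123 CPM), Samd11 (253 CPM), Nr2e3 (84.5 CPM) and Mef2c (76.8 CPM). Its Nrl stood at 74.2 CPM, below every cone cluster of the library. Its leading genes by summed UMIs over other nuclei were Gm26685, Poteg, Gm9869 and Cngb3, and none of its 10 leading genes was a bipolar marker. The lowest of the 6 was cluster 42, with 148 nuclei, for Prdm1 (39.6 CPM), Nrl (39.6 CPM), Nr2e3 (13.2 CPM), Esrrb (48.4 CPM) and Samd11 (57.1 CPM), while its Otx2 stood at 329.7 CPM. Its Nr2e3 rests on 3 UMIs and its Prdm1 and Nrl on 9 each. Otx2 ranged only from 211 to 331 CPM over the 6 clusters.

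The patterns over populations were compared as the Pearson correlation of log2(CPM + 1) over 47 clusters within a library, which share libraries and depth and are no independent samples. Nrl, Nr2e3, Esrrb and Samd11 formed the closest group, with r from 0.93 (Nrl and Esrrb) to 0.96 (Nrl and Nr2e3). Crx and Neurod1 had r of 0.91, and Crx and Otx2 0.87. Samd7 was closer to Crx (0.85) and Otx2 (0.85) than to Nrl (0.70) or its partner Samd11 (0.72). Prdm1 was nearest to Crx (0.76) and had r of 0.05 to 0.15 with the rod factors other than Samd7 (0.58).

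**Figure D5:**
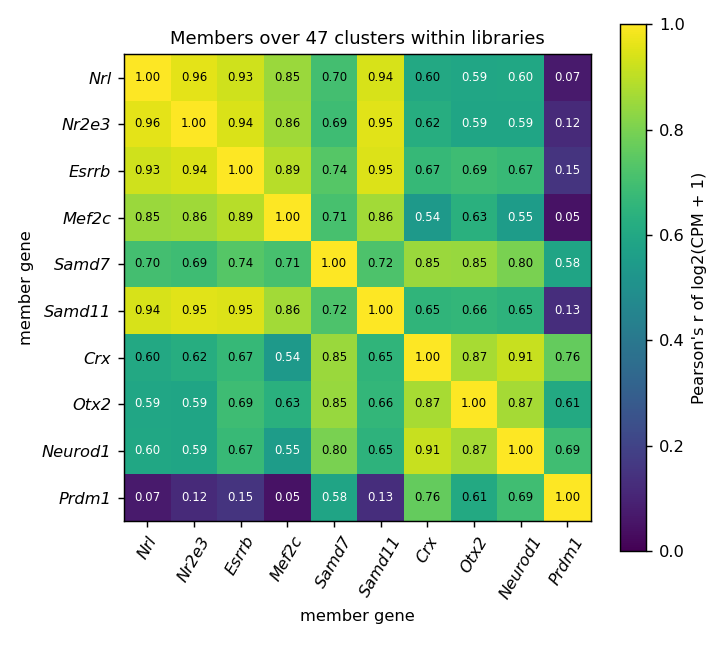
Pearson's r (colour and printed values) of log2(CPM + 1) between members over 47 clusters within libraries. Nrl, Nr2e3, Esrrb and Samd11 form a block from 0.93 (rounded) upwards, and Prdm1 has r near 0 with Nrl (0.07).

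Over 8218 genes that reached 50 CPM in some cluster, those most like Nrl and Samd11 included genes of the rod outer segment and rod phototransduction. For Nrl they were Rom1 (r of 0.98), Gnat1 (0.98) and Guca1a (0.97), and for Samd11 Pde6b (0.98), Tlcd3b (0.98) and Guca1b (0.97). Nr2e3 was most like Pde6b, Dlg4 and Pde6a (0.97, 0.97 and 0.96), and Esrrb most like Pde6b, Gm44196 and Pde6a (0.97, 0.97 and 0.96). Mef2c had less close neighbours, Fhip1a, F630040K05Rik and Pdzph1 (0.91 each), as did Samd7 with Frmpd2, Dhrs3 and Impdh1 (0.93, 0.92 and 0.91). Crx was most like Slc1a2 and Ano2 (0.94 each), Otx2 most like Samsn1, Tafa3 and Gm4792 (0.94, 0.93 and 0.92), and Neurod1 most like Slc1a7, Opn1mw and Rpgrip1 (0.92 each). Prdm1 was most like Pcdh15, Gm32442 and Clcn3 (0.94, 0.93 and 0.92).

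The genes around the members were read from 4 lists in pooled photoreceptors, beside the median gene of 0.23. Over all 11377 genes, 2.58% were at least 2-fold lower and 6.67% at least 2-fold higher there. Of 24 other photoreceptor regulators 21 were at 10 CPM or more, with none at least 2-fold lower and 3 at least 2-fold higher, at a median log2 ratio of 0.25. The highest were Rxrg, the retinoid receptor of cones (2.64; 2.20 to 3.09), and Sall3, a zinc finger factor (1.54; 1.14 to 1.956), and the third was Sox11 (1.32; 0.81 to 1.84), named after its value was seen. The lowest were Ebf1 (-0.51) and Casz1 (-0.41), so no regulator on this list was as low as the 5 rod factors. The members and lists were chosen with earlier results of these data known, so this contrast is a description only.

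Rod genes that NRL, NR2E3 and CRX are known to act on went with the rod factors. Of 16 such genes 12 were at least 2-fold lower and none higher, at a median log2 ratio of -1.21. The lowest were the rod channel gene Cnga1 (-1.82; -1.89 to -1.75) and the exchanger gene Slc24a1 (-1.78; -1.88 to -1.68). The highest were Gngt1, a transducin subunit (0.00; -0.05 to 0.05), and Sag, the arrestin of rods (-0.33; -0.36 to -0.30).

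Of 13 cone genes 12 were at 10 CPM or more, with 9 at least 2-fold higher and 1 at least 2-fold lower, at a median log2 ratio of 1.48. The highest were the cone channel gene Cngb3 (3.11; 3.04 to 3.19) and the short-wavelength opsin gene Opn1sw (3.07; 2.94 to 3.19). The lowest were Grk1, the kinase that rods share with cones (-1.29; -1.42 to -1.15), and Pde6h, a cone phosphodiesterase subunit (-0.95; -1.24 to -0.67). Of 10 bipolar factors 7 were at 10 CPM or more in photoreceptors, with Vsx1 at least 2-fold higher (1.09; 0.68 to 1.52) and none lower, at a median of -0.11. The lowest were Lhx3 (-0.30; -0.69 to 0.09) and Isl1 (-0.26; -0.38 to -0.15).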

How the data were processed

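Single-nucleus RNA-seq of 1 Cre- and 1 Tet tcKO retina library (PIPseq 3′ kit) was used. The authors processed reads with pipseeker 3.3.0 on GRCm39, removed ambient RNA with CellBender and filtered nuclei in Monocle3 by transcript number and mitochondrial share. What they deposited after these steps are matrices of UMI counts, in whole numbers. The mitochondrial percent, the size factor (a depth ratio, not used for levels), clusters and cell type names are the authors' values. The deposited gene table gives a mean signal per genotype, not used for levels, and a count of nuclei per gene.

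UMIs were summed over a population and divided by its total (CPM). With 1 library per genotype no test was run. Intervals at 95% are exact Poisson for levels, conditional exact for log2 ratios and Clopper-Pearson for shares. In ratios a 0 was replaced by 3 counts, and no ratio was given where neither library exceeded 3. Genes were counted as 2-fold different among those at 10 CPM or more in 1 library. Thinning drew 500 UMIs per nucleus with a fixed seed. No doublet caller was run. Classes were checked against fixed marker lists, by whether another class had more markers than its own among a cluster's 10 leading genes. Named genes were the members, the 2 highest and 2 lowest of each list, and the 3 most correlated genes. The members and lists were chosen with earlier results of these data known. Of the listed genes 2 were absent from the gene table. TMM factors came from edgeR 4.0.16 in R 4.3.3, and the rest from Python 3.11.15, numpy 2.4.6, scipy 1.17.1 and pandas 2.3.3. The log2 ratio intervals were run on simulated Poisson counts, the model they assume. That run checks the calculation and says nothing of wider spread between nuclei or animals. Alternatives covered scaling, depth, the nuclei included and counting once per nucleus. Promoter sequences are RefSeq's, and gene positions are from GENCODE M39. Values of some genes that these rules name are not reported here.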

Additional observations from a re-analysis of the deposited data

Results flagged for a closer look

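The deposited gene table, which the comparisons above do not use, gives for each gene a number of nuclei with a UMI, and for every member it was above the number in the 2 deposited matrices. The excess was 683 nuclei for Nrl, 581 for Nr2e3, 809 for Esrrb, 459 for Mef2c, 318 for Samd7, 870 for Samd11, 698 for Crx, 703 for Otx2, 894 for Neurod1 and 403 for Prdm1. For Nrl the table counts 5198 nuclei and the matrices 4515. The table does not divide this number by genotype, there is no control value for it, and what the further nuclei are was not tested.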

How the results depend on the processing

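No paired analysis was possible because each genotype had 1 library. No replicate could be left out for the same reason. Of 180 log2 ratios of member levels under alternatives, 177 kept the sign reported, 124 stayed inside the counting interval and 56 moved outside it; the 3 others in sign were all Samd7 in pooled photoreceptors, whose interval includes 0. No value with an interval apart from 0 was reversed. Per Crx UMI, Neurod1 went from 0.08 to -0.07 in nuclei with 1000 to 2000 UMIs and to -0.13 when counted once per nucleus. Of 105 counts of genes past 2-fold or with a lower or higher share, 96 stayed within 1.5 times. Counting each gene once per nucleus gave 3 members at least 2-fold lower in pooled photoreceptors in place of 5, with Nrl at -0.88 and Samd11 at -0.96. TMM and median-of-ratios factors gave 2 cone genes at least 2-fold lower in place of 1 and 0 bipolar factors at least 2-fold higher in place of 1, by construction, since they lower every pooled log2 ratio by 0.19 and 0.17. A minimum of 1 CPM, or none, gave 1 bipolar factor at least 2-fold lower in place of 0 in both populations, as more genes were counted. Without cluster 11, 4 members were 2-fold lower, with Nrl at -0.97, and with RGC levels subtracted 4, with Nrl at -0.89; leaving out clusters 32 and 40, or cluster 11, was chosen after seeing the data. The cause of other movements was not tested. Depth limits Prdm1 in Cre- most, with 443 UMIs in all and 7 and 9 in amacrine nuclei and RGCs.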
